A study of Mus musculus with 3 samples.

Results

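The 10 genes described here encode the core of the transforming growth factor beta (TGF-beta) response: the ligand Tgfb1, the receptors Tgfbr1, Tgfbr2 and Tgfbr3, the SMAD proteins Smad2, Smad3, Smad4 and Smad7, and the SKI repressors Ski and Skil. They were taken by name from 50600 genes in the deposited tables, with earlier results of these data known, and each name matched 1 gene. The RNA came from T cells of C57BL/6NJ mice, used as primary cells, in 3 libraries that form a single group. The labels number them as biological replicates 2, 3 and 4. They name a protocol for the differentiation of CD4+ T cells, give no genotype, treatment, age or sex, and carry 1 donor identifier for all libraries. The file headers add the words Th0 and activated and a time of 0 h. Whether the libraries came from separate animals is not stated, but sex-linked genes given below set replicate 2 apart from the others. Every p-value below therefore describes only these 3 libraries, and some of their differences may be technical. For a pair of genes, the p-value asks whether the mean difference within libraries is 0.

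TGF-beta is secreted as a latent dimer and acts after it is released from its propeptide. The active ligand binds the type II receptor TGFBR2, which recruits and phosphorylates the type I receptor TGFBR1, and TGFBR1 then phosphorylates SMAD2 and SMAD3. These join SMAD4 and enter the nucleus, where SKI and SKIL (also called SnoN) can hold the complex in a repressed state, while SMAD7 blocks the receptor. In T cells the pathway is known for restraining effector differentiation, for maintaining naive cells and for its part in the induction of regulatory T cells.

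Levels are in TPM, which correct the read count of a gene for its exon length and scale each library to the same total. Library totals were 47432940, 59698913 and 28340521 counts in replicates 2, 3 and 4, and the 10 genes had between 6246 and 92236 counts each over the 3 libraries. Replicate 2 stood apart from the others in sex-linked genes, with Xist at 151 TPM against 0.221 and 0.399 TPM in replicates 3 and 4. Ddx3y was at 0.248 TPM in replicate 2 against 80.0 and 72.3 TPM in replicates 3 and 4. By these genes replicate 2 differed in sex from the others, although the labels carry 1 donor identifier for all. Replicate 4 stood apart in the immediate early gene Fos, at 122 TPM against 30.8 and 27.2 TPM in replicates 2 and 3. Of 8 genes that mark T cells, 8 reached 1 TPM in each library. Their summed level was between 9682 and 9904 TPM, led by the receptor gene Trac at 3374 ± 63.1 TPM (SD, n = 3).

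The 10 genes reached 1 TPM, the threshold used here for detection, in each of the libraries, and their means ran from 24.8 TPM for Tgfbr1 to 298 TPM for Tgfbr2. The same threshold was met by 23.4% of all genes in the tables and by 46.1% of protein-coding genes. The median of the 10 means was 97.4 TPM, beside 33.4 TPM over the 10030 detected protein-coding genes. Only Tgfbr1 lay below that median, with 41.3% of detected protein-coding genes lower than it, while 95.3% were lower than Tgfbr2 and 94.9% lower than Ski. The sum over the 10 genes was 1272, 1286 and 1264 TPM in replicates 2, 3 and 4, and Tgfbr2 and Ski together led it, with 23.4 ± 0.0678% and 22.1 ± 0.445% of the sum (SD, n = 3).

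**Figure D1:**
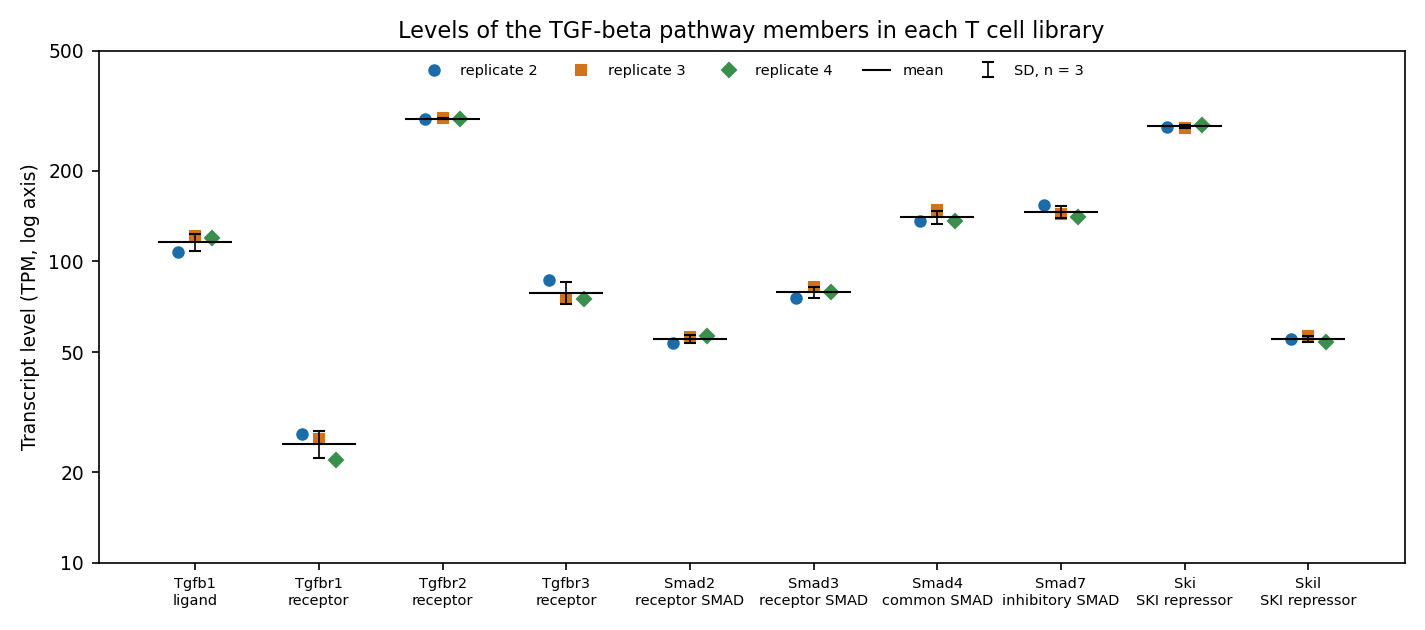
Transcript level of each gene in TPM on a log axis, with 1 point per library, the mean as a horizontal line and the SD over 3 libraries as bars. Tgfbr2 and Ski lie highest, near 298 and 281 TPM, and Tgfbr1 lies lowest, near 24.8 TPM.

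Among the receptors, the type II chain was far more abundant than the type I chain with which it signals. Tgfbr2, the ligand-binding chain (ENSMUSG00000032440.13, mm10 chromosome 9, 116084293 to 116175360, minus strand), was at 297, 300 and 296 TPM in replicates 2, 3 and 4. Tgfbr1, the chain that phosphorylates SMAD2 and SMAD3 (ENSMUSG00000007613.15, chromosome 4, 47353222 to 47414931, plus strand), was at 26.8, 25.7 and 22.0 TPM. The values of Tgfbr2 sat within a narrow band and those of Tgfbr1 were lowest in replicate 4, with no overlap between the genes. The ratio of Tgfbr2 to Tgfbr1 was 11.1, 11.6 and 13.5 in the 3 libraries. On the log2(TPM + 0.1) scale the difference was 3.58 ± 0.14 (SD, n = 3), with the same sign in 3 of 3 libraries and p = 0.25 (sign-flip permutation test, exact and two-sided). With 3 libraries this test cannot go below that value, so it could not pass 0.05 for any pair. Adjusted by the Benjamini-Hochberg method over the 45 pairs of these genes, it was 0.268 (exact permutation test).

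Tgfbr3, or betaglycan, a coreceptor that presents ligand to the type II chain, stood between them (ENSMUSG00000029287.14, chromosome 5, 107106570 to 107289629, minus strand). It was at 86.5, 75.0 and 74.9 TPM in replicates 2, 3 and 4, highest in replicate 2 and close in the other libraries. It exceeded Tgfbr1 by 1.66 ± 0.11 on the log2 scale and fell short of Tgfbr2 by a log2 difference of 1.92 ± 0.12, each with 1 sign in 3 of 3 libraries. Of the exon bases of Tgfbr3, 4.54% are shared with another gene on the same strand, Gm43422, so its count there is uncertain, and the other 9 genes share none. By TPM, Tgfbr2 made up 74.2 ± 1.57% of the summed receptor transcripts and Tgfbr1 6.18 ± 0.507% (SD, n = 3). Transcript levels do not give the amount of receptor at the surface.

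The bases upstream of the receptor starts are printed because the Tgfbr2 and Tgfbr1 transcripts, whose products work as a pair, were the highest and the lowest of the 10. They come from RefSeq on GRCm38.p6, the build called mm10, and each is the 250 bases before the annotated start, 5′ to 3′ on the strand of the gene. Capitals mark a GC box, GGGCGG on either strand, or a CCAAT box, CCAAT on either strand, and these matches do not overlap.
Tgfbr2, chr9:116175364-116175613, minus strand: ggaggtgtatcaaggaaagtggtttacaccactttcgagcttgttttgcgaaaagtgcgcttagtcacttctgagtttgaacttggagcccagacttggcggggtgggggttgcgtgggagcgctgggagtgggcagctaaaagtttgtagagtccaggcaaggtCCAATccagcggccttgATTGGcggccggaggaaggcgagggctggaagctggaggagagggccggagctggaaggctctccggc
Tgfbr1, chr4:47352972-47353221, plus strand: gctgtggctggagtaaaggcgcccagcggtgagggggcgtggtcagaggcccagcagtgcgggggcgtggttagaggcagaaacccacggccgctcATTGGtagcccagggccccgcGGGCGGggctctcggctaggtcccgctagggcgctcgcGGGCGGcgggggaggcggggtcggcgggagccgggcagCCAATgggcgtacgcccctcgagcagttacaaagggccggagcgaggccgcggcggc

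The window of Tgfbr2 held 2 CCAAT boxes and 0 GC boxes, and that of Tgfbr1 2 of each. The GC content was 58.4% for Tgfbr2 and 74.8% for Tgfbr1, beside a median of 52.4% over 32851 RefSeq promoter windows of the same length. A GC box occurred in 32.7% of those windows and a CCAAT box in 33.8%. Neither window held the TATAAA letters, which occurred in 12.4% of all, or the palindrome GTCTAGAC known from SMAD binding, which occurred in 0.167%. The shorter SMAD element CAGAC, searched on both strands, matched 1 time in the Tgfbr2 window and 0 times in that of Tgfbr1, and occurred in 42.2% of all windows. RefSeq windows were matched for 5 of the 10 genes, the others being Tgfb1, Smad3 and Ski. Tgfbr1 had a further start, not printed, at which neither box was found and CAGAC matched 1 time. A match is a description of letters, and neither factor binding nor promoter activity was measured here.

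The ligand gene Tgfb1 (ENSMUSG00000002603.15, chromosome 7, 25687002 to 25705077, plus strand) was at 107, 121 and 119 TPM in replicates 2, 3 and 4, lowest in replicate 2. Its level rests on the length used. The tables give it 5042 exon bases, while its longest annotated coding transcript has 2175. With the longest coding transcript as length, capped at the deposited length, Tgfb1 came to 193 ± 12.6 TPM (SD, n = 3). This was 1.67 times its main level, and Tgfb1 moved from the fifth to the third place among the 10. Each library was rescaled to the same total, so Smad2, with its length unchanged, came to 0.719 times its main level. The excess of Tgfb1 over Tgfbr1 with deposited lengths was 4.01, 4.70 and 5.43 times in replicates 2, 3 and 4, a log2 difference of 2.22 ± 0.22. With coding transcript lengths that difference was 3.25.

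In bulk RNA, fewer cells of a type and less RNA per cell cannot be told apart, and several other cell types make Tgfb1. Of 5 platelet and megakaryocyte markers, Pf4, Ppbp, Gp9 and Gp1bb had 0 counts, where 3 counts over the libraries would amount to 0.110, 0.0733, 0.0901 and 0.0422 TPM, and the list sum was between 3.01 and 3.75 TPM, from Itga2b alone. Macrophage and monocyte markers summed to between 16.0 and 17.0 TPM with 2 of 5 genes detected, and B cell markers to between 34.2 and 48.9 TPM with 5 of 6. Dendritic cell markers and MHC class II genes, read as 1 list, summed to between 139 TPM in replicate 4 and 211 TPM in replicate 3, with 3 of 5 detected. Its defining genes Itgax, at 0.536 ± 0.283 TPM, and Flt3, at 0.130 ± 0.101 TPM, were low, and Cd74 led at 117 ± 22.6 TPM. Regulatory T cell markers summed to 19.9, 21.4 and 24.3 TPM in replicates 2, 3 and 4 with 4 of 5 detected. That sum was lowest in replicate 2, although Ctla4, the highest of the list, was highest there, at 9.52 TPM against 8.71 and 8.88 TPM. The part of these cells in the Tgfb1 level was not tested.

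Of the SMADs that TGFBR1 phosphorylates, Smad3 was the more abundant. Smad3 (ENSMUSG00000032402.12, chromosome 9, 63646767 to 63757994, minus strand) was at 75.8, 82.0 and 79.1 TPM in replicates 2, 3 and 4. Smad2 (ENSMUSG00000024563.15, chromosome 18, 76241580 to 76305731, plus strand) was at 53.5, 56.1 and 56.6 TPM. Both were lowest in replicate 2, and the ranges did not overlap. The ratio of Smad3 to Smad2 was 1.42, 1.46 and 1.396, and the log2 difference of 0.51 ± 0.03 (SD, n = 3) exceeded its spread. The longest annotated coding transcript of Smad2 has 8089 bases, against 3549 deposited exon bases. Coding transcript lengths were capped at the deposited length, so the level of Smad2 at 8089 bases was not computed.

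Smad4, the partner that both need for nuclear complexes, was higher than either (ENSMUSG00000024515.13, chromosome 18, 73639009 to 73703780, minus strand). It was at 137, 148 and 136 TPM in replicates 2, 3 and 4. Its level was close to the sum of Smad2 and Smad3, with a ratio of Smad4 to that sum of 1.06, 1.07 and 1.00. Smad7, the inhibitory SMAD that acts at the receptor (ENSMUSG00000025880.11, chromosome 18, 75367529 to 75395935, plus strand), was at 153, 144 and 141 TPM. The values of Smad7 and Smad4 overlapped, and the log2 difference of 0.06 ± 0.11 was positive in 2 of 3 libraries (exact two-sided sign-flip permutation p = 0.50). Its single differences ran from -0.045 to 0.168. Smad7 thus stood at 1.19, 1.04 and 1.04 times the sum of Smad2 and Smad3.

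Of the SKI repressors, Ski was by far the more abundant. Ski, whose product recruits corepressors to SMAD complexes (ENSMUSG00000029050.15, chromosome 4, 155154075 to 155222592, minus strand), was at 280, 278 and 285 TPM in replicates 2, 3 and 4. Skil, its close relative (ENSMUSG00000027660.16, chromosome 3, 31095058 to 31122577, plus strand), was at 55.2, 56.7 and 54.1 TPM. Each gene kept a narrow band, and the ratio of Ski to Skil was 5.08, 4.91 and 5.26. The log2 difference was 2.34 ± 0.05 (SD, n = 3) and had the same sign in 3 of 3 libraries. Ski and Skil together came to 2.59, 2.42 and 2.50 times the sum of Smad2 and Smad3. Adding Smad7 to the repressors and Smad4 to the transducers, the ratio was 1.84, 1.67 and 1.76, from sums of 482 ± 5.71 TPM and 275 ± 10.5 TPM. Such sums weigh transcripts alone, and the sum of the repressors was above that of the transducers in each library.

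In order of level the genes were Tgfbr2, Ski, Smad7, Smad4, Tgfb1, Smad3, Tgfbr3, Smad2, Skil and Tgfbr1. Neighbours were taken to differ beyond their spread where the mean log2 difference exceeded 2 SD and had 1 sign in every library. This held for 6 of 9 neighbouring pairs and for 42 of all 45 pairs, each with an exact two-sided permutation p of 0.25. The 3 pairs that did not differ in this sense were Smad7 and Smad4, Smad3 and Tgfbr3, with 0.01 ± 0.17, and Smad2 and Skil, with 0.002 ± 0.06. The smallest difference that did was Tgfbr2 over Ski, at 0.08 ± 0.02. With coding transcript lengths Tgfb1 passed above Smad4 and Smad7, with log2 differences of -0.80 for Smad4 minus Tgfb1 and -0.80 for Smad7 minus Tgfb1, and Skil passed above Smad2, with -0.53 for Smad2 minus Skil.

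**Figure D2:**
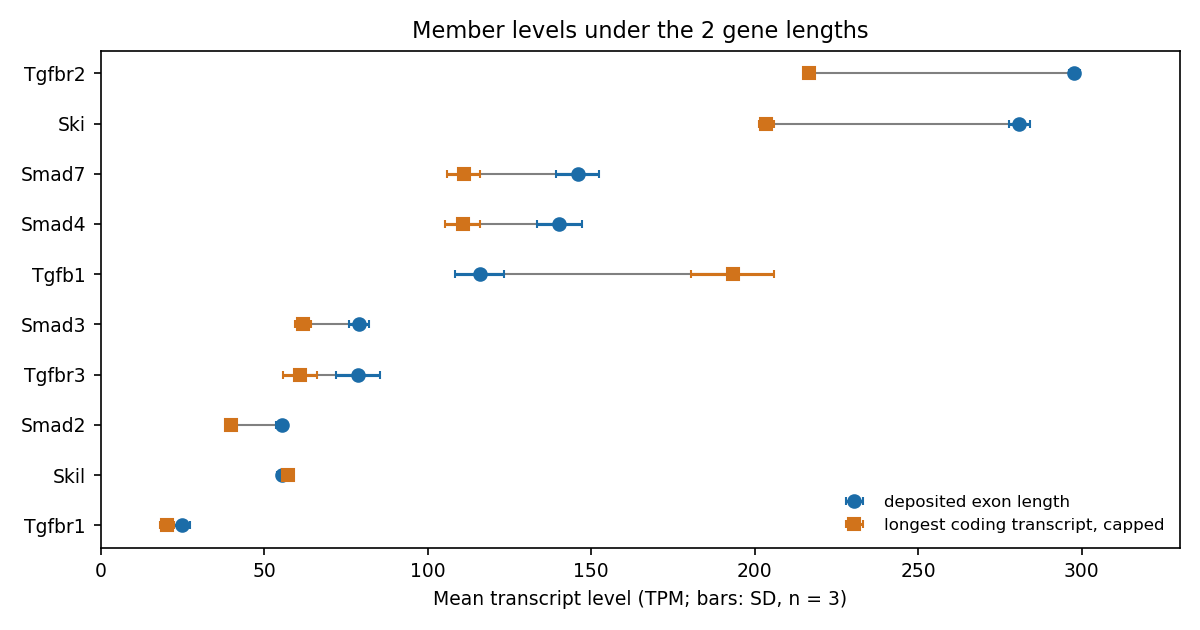
Mean level of each gene in TPM, with bars for the SD over 3 libraries, computed with the exon length of the deposited tables (circles) and with the longest annotated coding transcript, at most the deposited length (squares). Tgfb1 moves up from 116 to 193 TPM, Tgfbr2 moves down from 298 to 217 TPM, and Tgfbr2, Ski and Tgfbr1 keep their places as highest, second and lowest. Smad2 keeps its deposited length in both, since its longest coding transcript is longer. Its move from 55.4 to 39.9 TPM comes from rescaling each library to the same total. Tgfbr2, at 8092 bases against 8187, nearly keeps its deposited length, so its move down is also mostly rescaling.

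The 10 genes varied little among the libraries. The highest library exceeded the lowest by a log2 CPM difference between 0.05 for Tgfbr2 and 0.23 for Tgfbr1, after TMM scaling for composition. Their median range was 0.13, beside 0.19 over the 13498 genes tested and 0.10 over the 4503 genes with at least the 6246 pooled counts of Tgfbr1. A goodness of fit test in edgeR asked whether a gene varied more than genes of its abundance did. It called 0 of the 10 genes at an adjusted p of 0.05, beside 0.533% of all genes tested (72 of 13498). At an unadjusted p under 0.05 it found 0 of the 10, beside 4.1% of all genes tested (554 of 13498), and with 10 genes a count of 0 is near that share. The smallest unadjusted p was 0.332, for Tgfb1. A p above the threshold does not show that levels were equal.

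The spread of most members was nonetheless larger than counting error alone would give. A chi-square test of counts against Poisson means called 9 of the 10 genes after Benjamini-Hochberg adjustment over all genes tested, the exception being Skil. The same test called 47.8% of all genes tested and 66.8% of those with at least as many pooled counts as Tgfbr1, so at this depth the call is common. The spread was widest against counting error for Tgfb1, where chi-square came to 46.5 for each degree of freedom, and for Tgfbr3, where it came to 34.7. Tgfb1 was lower in replicate 2 than in the others under each of 4 scalings, with a log2 difference between the highest and lowest library of 0.21 after TMM scaling. Tgfbr3 was highest in replicate 2 under each, and Tgfbr1 was lowest in replicate 4. For 6 of the 10 genes the library with the largest deviation was replicate 2, and without it the chi-square test called 3, namely Tgfbr1, Smad4 and Ski. Replicate 2 is also the library with high Xist, and the part of that difference in these values was not tested.

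**Figure D3:**
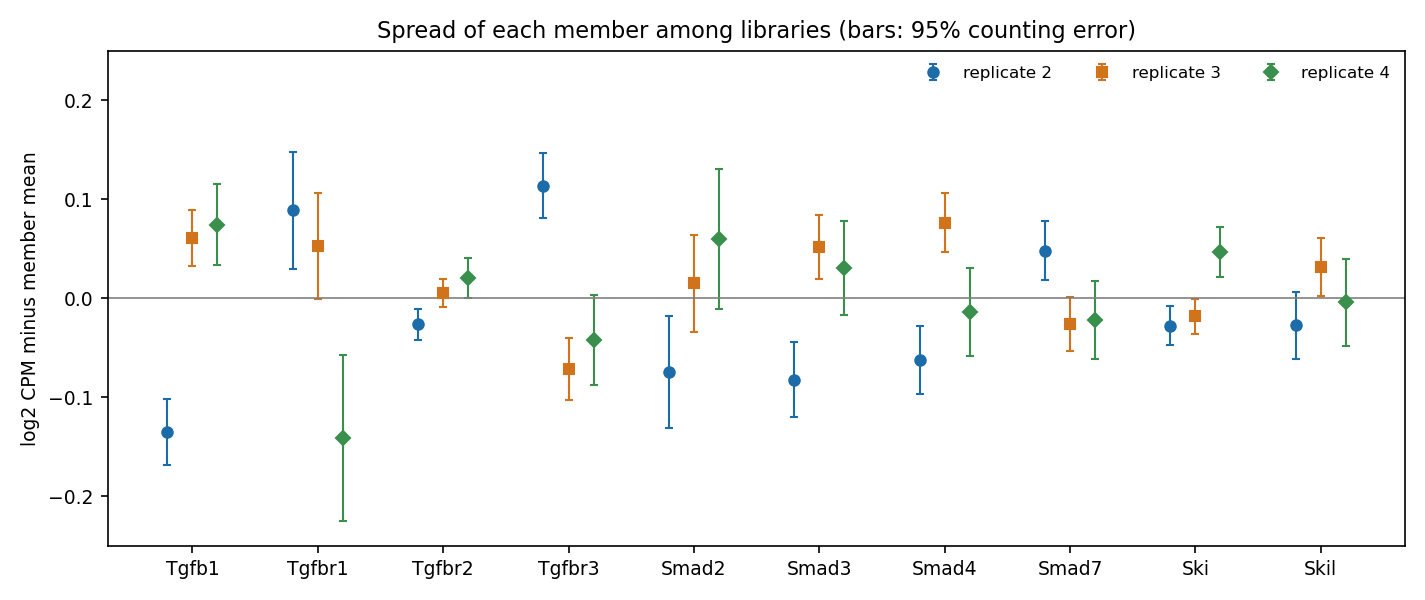
Deviation of each library from the mean of the 3 on the TMM-scaled log2 CPM scale, 1 point per gene and library, with bars for 95% counting error. The widest deviations are Tgfbr1 in replicate 4, at -0.14, and Tgfb1 in replicate 2, at -0.13.

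Beyond these 10 genes, 92 further genes of the TGF-beta superfamily and its regulators and targets were read from 9 lists, and 52 of them (56.5%) were detected. The remaining ligands were nearly absent, with 1 of 12 detected. This was Gdf11, an activin-like ligand, at 16.9 ± 2.13 TPM (SD, n = 3), followed by Bmp7 at 1.32 ± 0.479 TPM and Tgfb3 at 0.764 ± 0.304 TPM. Tgfb2 had 8 counts over the libraries, and Inha, Inhbb, Bmp4, Gdf15, Mstn and Nodal had 0, where 3 counts would be at most 0.0538 TPM, the value for Inha. Tgfb1 was therefore the only 1 of the 3 TGF-beta isoform genes to reach 1 TPM in every library.

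Genes that store and release the latent ligand were detected in 3 of 11 cases. Nrros, which encodes a surface anchor for latent TGF-beta known from myeloid cells, was at 123, 124 and 121 TPM in replicates 2, 3 and 4, a level close to that of Tgfb1. Furin, the protease that cuts the propeptide, was at 32.0 ± 1.99 TPM and the integrin gene Itgav at 9.80 ± 1.01 TPM. Lrrc32, which encodes GARP, the anchor of regulatory T cells, stayed at 0.844 ± 0.482 TPM. Of the integrin genes that partner Itgav in activation, Itgb8 had 10 counts and Itgb6 1 over the 3 libraries. The 5 macrophage and monocyte markers together summed to between 16.0 and 17.0 TPM, below Nrros alone. Regulatory T cell markers, Lrrc32 among them, summed to between 19.9 and 24.3 TPM. The cells from which the Nrros and Lrrc32 transcripts came were not tested.

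Among the other receptors 5 of 11 were detected. Acvr1b, a type I receptor for activin that also uses SMAD2 and SMAD3, was at 98.6, 91.9 and 89.4 TPM in replicates 2, 3 and 4, above Tgfbr1 in each library. Acvrl1, the type I receptor ALK1, known from endothelial cells, was at 62.4, 27.0 and 50.6 TPM. It was the only 1 of 63 pathway genes tested that varied among libraries beyond genes of its abundance (edgeR goodness of fit, adjusted p = 6.40e-09), with replicate 3 low by a log2 range of 1.18. Without replicate 3 the call was lost, with an adjusted p of 1.00 in the same edgeR test, and with replicate 2 or 4 left out it was kept. The endothelial markers Cdh5, at 0.257 ± 0.0912 TPM, and Kdr, at 0.00926 ± 0.0160 TPM, were near 0, while Pecam1, which T cells also express, was at 155 ± 1.498 TPM. The type II receptors of this list were low, with the activin receptor Acvr2a at 2.56 ± 0.161 TPM and the BMP receptor Bmpr2 at 1.73 ± 0.220 TPM. The list leaves out Tgfbr2, the type II receptor described above, at 298 TPM.

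By TPM, the SMADs of the BMP branch were less abundant than those of the TGF-beta branch. Smad5 was at 49.1 ± 4.35 TPM and Smad1 at 15.2 ± 1.59 TPM, while Smad9 had 1 count and the inhibitory Smad6 9 counts over the libraries. Smad7 was thus the only inhibitory SMAD detected. In TPM Smad5 lay below Smad2 in every library, though closely in replicate 2, at 52.7 against 53.5 TPM. Smad5 had more pooled counts, 13984 against 7416, so this order rests on the gene lengths used.

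Regulators of the receptors and SMADs were detected in 18 of 20 cases, with a median of 42.4 TPM. Stub1, a chaperone-associated ubiquitin ligase that acts on SMAD3, was at 209 ± 9.60 TPM, Fkbp1a, whose product FKBP12 binds the type I receptor, at 131 ± 5.42 TPM, and Strap, a receptor-associated protein that works with SMAD7, at 95.9 ± 2.64 TPM. Of the genes for corepressors and coactivators, 10 of 14 were detected, among them the nuclear receptor corepressor Ncor1 at 183 ± 6.66 TPM and the deacetylase Hdac1 at 118 ± 5.17 TPM. SKI and SKIL are known to recruit these proteins. The SKI relatives Skor1 and Skor2 had 3 and 0 counts, so Ski and Skil were the members of that family present in these cells at 1 TPM or more. All 6 genes of the TAK1 branch, the route from the receptor to MAP kinases, were detected, led by Tab2 at 112 ± 1.61 TPM, Traf4 at 78.0 ± 4.70 TPM and Tab1 at 54.1 ± 4.49 TPM.

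Genes that TGF-beta is known to raise were mixed. Of 9 listed, 5 were detected, led by Ldlrad4, a feedback inhibitor, at 28.1 ± 1.70 TPM, the repressor gene Tgif1 at 11.4 ± 1.06 TPM and Pmepa1, another feedback inhibitor, at 11.0 ± 0.709 TPM. Itgae, which encodes CD103, was at 0.229 ± 0.0892 TPM, and Cdkn2b had 0 counts. Beside these, the feedback genes Smad7 and Skil among the 10 stood at 146 and 55.3 TPM. Of 8 genes that TGF-beta is known to restrain in T cells, 5 were detected, led by Myc at 149 ± 2.82 TPM, the perforin gene Prf1 at 86.2 ± 4.18 TPM and Gata3 at 56.4 ± 4.43 TPM, while Ifng had 3 counts and Gzmb was at 0.565 ± 0.383 TPM. With no stimulated or blocked group, these levels say nothing of whether the pathway was active. Among all 63 tested pathway genes, 4 had an unadjusted edgeR p under 0.05, beside the 554 of 13498 genes given above, and their median log2 range was 0.14.

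**Figure D4:**
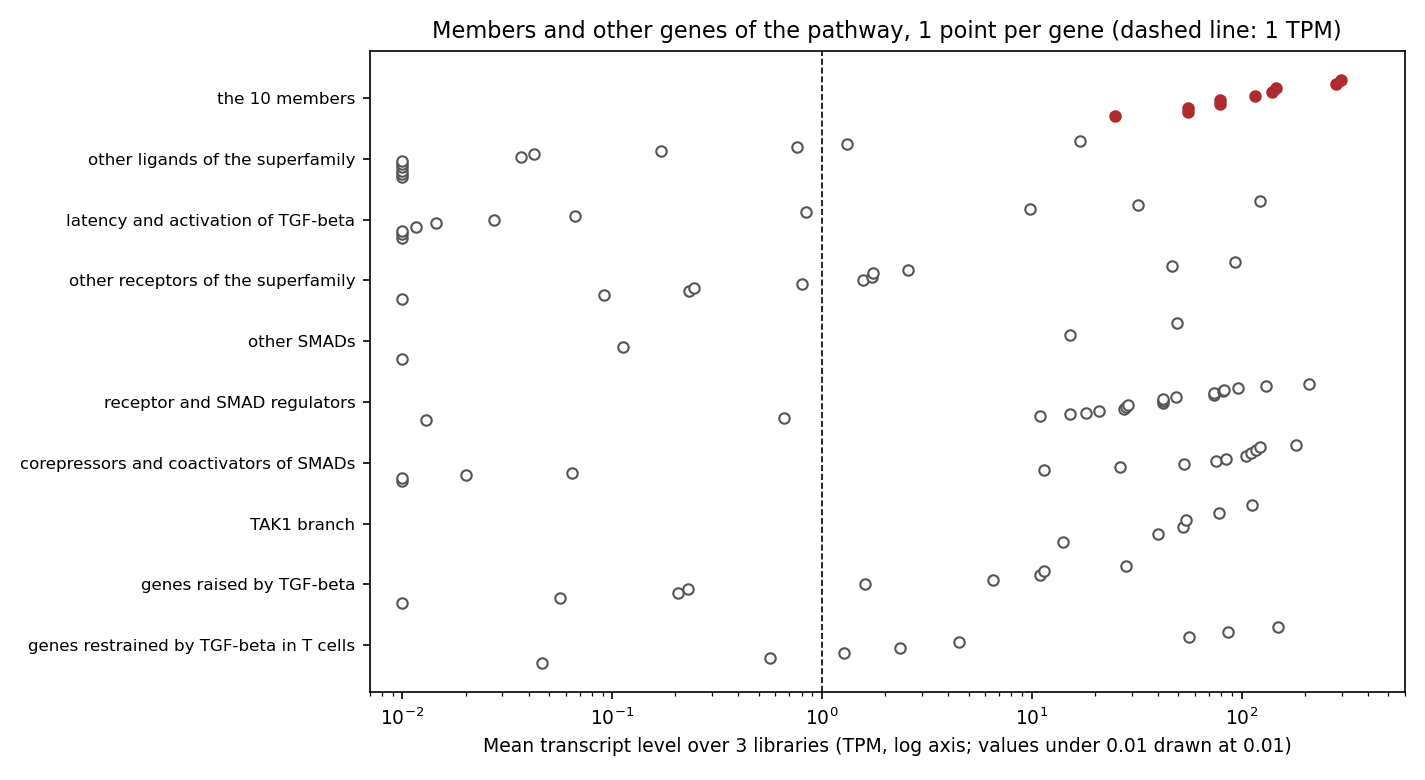
Mean level over 3 libraries in TPM on a log axis, 1 point per gene, for the 10 genes (filled) and for 9 lists of other genes of the pathway (open), with values under 0.01 TPM drawn at 0.01 and a dashed line at 1 TPM. All 10 genes lie above the line. By detection in every library, 18 of 20 regulators, 6 of 6 genes of the TAK1 branch and 1 of 12 other ligands passed. The ligand gene Bmp7, with a mean of 1.32 TPM, also lies above the line but was not detected in every library.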

How the data were processed

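RNA of mouse T cells was read from 3 libraries, 1 table each. The authors deposited raw counts of read pairs per gene, made with featureCounts 1.4.6-p4 against GENCODE M13 on mm10, per the file headers, over exons, with both ends aligned and with strand used. As for the aligner, its version is not given in the sources used here. Labels differ on the RNA, since the assay title names total RNA, while the linked library protocol is for poly(A) RNA. Text files that list each library's files hold no measurement and were not used.

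Symbols matched 50376 of 50600 genes, and the 224 without one (0.0116% of counts) stayed in library sizes. TPM were computed from counts and deposited exon lengths, and biotypes and transcript lengths came from GENCODE M21, also on mm10. Variation was tested over the 13498 genes whose mean count was at least 10. One test was edgeR's (4.0.16, in R 4.3.3) goodness of fit, with TMM factors, a trended dispersion and no term but the intercept. The other set counts against Poisson means by chi-square. Both were adjusted by the Benjamini-Hochberg method, with a threshold of 0.05. The edgeR test was tested on data simulated at the dispersion of these libraries, and the chi-square test on data simulated with counting error alone. Contrasts between genes used log2(TPM + 0.1) and an exact sign-flip permutation test. Alternatives included size factors from DESeq2 1.42.0, and coding transcript lengths, at most the deposited length, were added after the data were seen.

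The genes and lists were chosen with earlier results of these data known. All 10 genes were named, with the 3 highest of each list, any list gene that varied, and the highest gene of marker lists, except that some list genes are not reported here. Further list genes, Xist, Ddx3y and Fos were named after their values were seen. Results of the marker lists not given in the text are in the closing section. TPM and permutation tests were computed with pandas 2.3.3 and scipy 1.17.1.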

Additional observations from a re-analysis of the deposited data

How the results depend on the processing

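No paired analysis was possible because the libraries form a single group. The call of 0 of the 10 genes by edgeR's goodness of fit held under other size factors, unscaled library totals, count minimums of 1 and 50, a common dispersion and each replicate left out. Over all genes that test called 72, against 312 with a common dispersion and between 35 and 46 with a replicate left out. The test against counting error called 6447 genes and 9 of the 10, against between 3659 and 4351 genes and between 3 and 8 of the 10 with a replicate left out. With unscaled library totals it called 6577 genes and 7 of the 10. Tgfbr2 (adjusted chi-square p = 0.331) and Smad2 (adjusted chi-square p = 0.0899) were then no longer called. Detection of all 10 held at 0.5 and 5 TPM. Some contrasts between genes changed sign with length, including Smad4 minus Skil, which was 1.34 with deposited lengths. On the log2 scale, counts without length correction gave -0.16 for Smad4 minus Tgfb1, -0.043 for Smad4 minus Skil, -0.23 for Smad3 minus Tgfbr3, -0.29 for Smad3 minus Skil, -0.060 for Tgfbr3 minus Skil and -1.45 for Smad2 minus Skil. Coding transcript lengths gave -0.80 for Smad7 minus Tgfb1, -0.80 for Smad4 minus Tgfb1 and -0.53 for Smad2 minus Skil. With a replicate left out, Smad3 minus Tgfbr3 lay between -0.056 and 0.10 and Smad2 minus Skil between -0.030 and 0.026. The cause of these changes with a replicate left out was not tested. Depth limits the statements on ligands and SMADs with fewer than 10 pooled counts.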

Other observations

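Markers of other cell types that the text above does not describe were low or few. NK cell markers summed to between 30.2 and 31.7 TPM with 1 of 3 detected, namely Klrd1 at 29.4 ± 0.900 TPM. The other NK cell markers were Ncr1 at 0.842 ± 0.144 TPM and Klrb1c at 0.607 ± 0.105 TPM. CD8 T cell markers summed to between 31.2 and 36.8 TPM with 1 of 2 detected. This was Cd8b1 at 33.6 ± 3.00 TPM, while Cd8a was at 0.534 ± 0.182 TPM. Erythroid markers summed to between 1.13 and 4.90 TPM, led by Hbb-bs at 2.01 ± 1.37 TPM, and stromal markers to between 0.139 and 0.216 TPM, led by Col1a1 at 0.158 ± 0.0226 TPM, with Col3a1 and Pdgfra at 0 counts. Within the lists described above, Cd79a led the B cell markers at 14.8 ± 2.31 TPM, Cd68 those of macrophages and monocytes at 13.3 ± 0.314 TPM, and Ctla4 those of regulatory T cells at 9.04 ± 0.424 TPM. Endothelial markers summed to between 154 and 157 TPM, nearly all of it from Pecam1.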
